A study of Mus musculus with 6 samples.

Results

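Respiratory complex I, the NADH dehydrogenase of the mitochondrial respiratory chain, was described here by its nuclear genes, which carry symbols starting with Nduf. Every protein-coding gene with such a symbol was taken, which gave 46 of the 45706 genes in the count table, among 21519 that are protein-coding. By symbol, 38 are structural subunits (Ndufa, Ndufab, Ndufb, Ndufc, Ndufs and Ndufv) and 8 are assembly factors (Ndufaf). Ndufa4 and its paralog Ndufa4l2 are counted among the 38 by symbol, although Ndufa4 has since been assigned to complex IV. Ndufb1 was not analysed here.

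RNA was profiled from LSK cells (lineage-negative, Sca-1 and c-Kit positive), the bone marrow compartment that holds the blood stem cells and early progenitors. The targeted gene, Setd1b, encodes a histone H3 lysine 4 methyltransferase. The 3 Ctrl mice were heterozygous for the conditional Setd1b allele (FD/+; RC/+) and the 3 cKO mice were homozygous (FD/FD; RC/+), with 1 library per mouse. The mice are described as littermates, but the labels do not say which share a litter. All 6 were C57BL/6 males aged 16 weeks, except for cKO mouse 3 at 17 weeks. RC denotes Rosa26-Cre-ERT2, a Cre that acts after tamoxifen in nearly every tissue and is not restricted to blood cells. The Ctrl mice therefore carried Cre and 1 conditional allele and received tamoxifen too. Cre removes a coding exon and shifts the reading frame. Tamoxifen was gavaged at 4.5 mg daily over 4 days and, 3 days later, over 2 more, 6 doses by the labels, and bone marrow was taken 3 days after the final dose. The paper states fewer doses. Reads counted on genes came to 13003573, 21277519 and 16559472 in Ctrl mice 1 to 3, and to 14512317, 15265730 and 14260925 in the cKO mice. By the library numbers in its header, the table holds 2 groups of 3 libraries, which neither the labels nor the paper explain. The lower numbers belong to Ctrl mouse 1 and cKO mice 1 and 2, and the higher numbers to Ctrl mice 2 and 3 and cKO mouse 3.

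Setd1b itself was at 221, 194 and 223 CPM (counts scaled to a common library total, with TMM factors) in the Ctrl libraries and at 272, 288 and 314 CPM in the cKO libraries. It was thus higher in each of the 3 libraries labelled cKO than in any Ctrl library, with a log2 fold change (cKO minus Ctrl) of 0.46 ± 0.07 (standard error) and an adjusted p of 0.00146 in edgeR. The counts cover all exons of the gene, so that they do not measure the loss of the deleted exon and do not check the label. For this reason the groups are called the libraries labelled cKO and Ctrl. The LSK markers Kit and Cd34 were present in every library, with Kit at 452 ± 59.5 CPM (SD, n = 3) in Ctrl and 440 ± 24.7 CPM in cKO. Of all tested genes, 3.88% were called higher and 3.79% lower in edgeR at an adjusted p under 0.05. At an unadjusted p under 0.05, 11.5% were lower. The median log2 fold change of the 10 LSK markers was -0.00255, with 5 below 0 and 5 above, and all 10 were tested. Of these, 2 were higher in the libraries labelled cKO, among them Procr (1.43, adjusted p = 0.000357 with edgeR), and none was lower, with 2 lower at an unadjusted p under 0.05 and none with DESeq2. The smallest adjusted p after these was that of Cd48, a marker of cells that have left the stem cell state, with -0.49 ± 0.16, overlapping groups and an adjusted p of 0.0739 in edgeR. Its difference was 0.084 among the lower and -1.08 among the higher library numbers and -0.32 without cKO mouse 3 (adjusted p = 0.229). It passed the threshold in 4 of 15 alternatives, with adjusted p from 1.25e-05 to 0.305 over all of them.

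Complex I takes electrons from NADH in the N module, passes them through iron-sulfur clusters to ubiquinone in the Q module, and couples this transfer to proton pumping in the membrane arm. The catalytic core is shared with bacteria and is encoded partly by the nucleus and partly by the mitochondrial genome, supernumerary subunits surround it, and assembly factors build the enzyme without remaining in it. Quiescent blood stem cells are known to rely little on respiration, and mitochondrial activity rises as progenitors leave quiescence and differentiate.

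The complex I genes lay slightly lower in the libraries labelled cKO, by about the same amount for subunits and for assembly factors, and few passed the test gene by gene. After the filter on low counts 45 of the 46 genes were tested. In edgeR, 3 of the 45 (6.67%) were lower past the threshold, an adjusted p under 0.05 over all 15184 tested genes, of which 3.79% were called lower. These were Ndufa4, Ndufa9 and Ndufb7. Without Ndufa4, 2 of 44 (4.55%) were called, near the share of all tested genes. None was called higher, and none was higher at an unadjusted p under 0.05 or with DESeq2, whereas 3.88% of all tested genes were called higher. At an unadjusted p under 0.05, 15 of the 45 were lower (33.3%), beside 11.5% of all tested genes. The complex I genes had a median level of 43.5 CPM, against 19.7 CPM over all tested genes. The shares of all tested genes given here and below were not matched for level. The count called was small and changed with the mice included. It was 6 without Ctrl mouse 1, 2 without Ctrl mouse 2, cKO mouse 1 or cKO mouse 2, and 1 without Ctrl mouse 3 or cKO mouse 3. Calls over all tested genes, higher and lower together, changed too. They numbered 1164 with all mice, 1125, 880 and 665 without Ctrl mice 1 to 3, and 790, 604 and 739 without cKO mice 1 to 3.

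Every tested structural subunit, 37 of 37, had a log2 fold change below 0, as did 6 of the 8 assembly factors, compared with 7584 of 15184 tested genes (49.9%). The number below 0 among all 45 was 43. It was 38 with each library's length trend taken out or Ctrl mouse 2 left out, and 39 with the group of library numbers as a covariate or without cKO mouse 2. The median log2 fold change was -0.19 over the structural subunits and -0.17 over the assembly factors, where the median over all tested genes was 0.00023. In 13 of the 45 genes (28.9%) every cKO library lay below every Ctrl library, and in none every cKO library lay above; the first pattern was found in 13.4% and the second in 14% of all tested genes. The members share the same 6 libraries and are not replicates of each other. In bulk RNA a smaller share of cells rich in these transcripts and less of the transcripts per cell cannot be told apart.

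**Figure D1:**
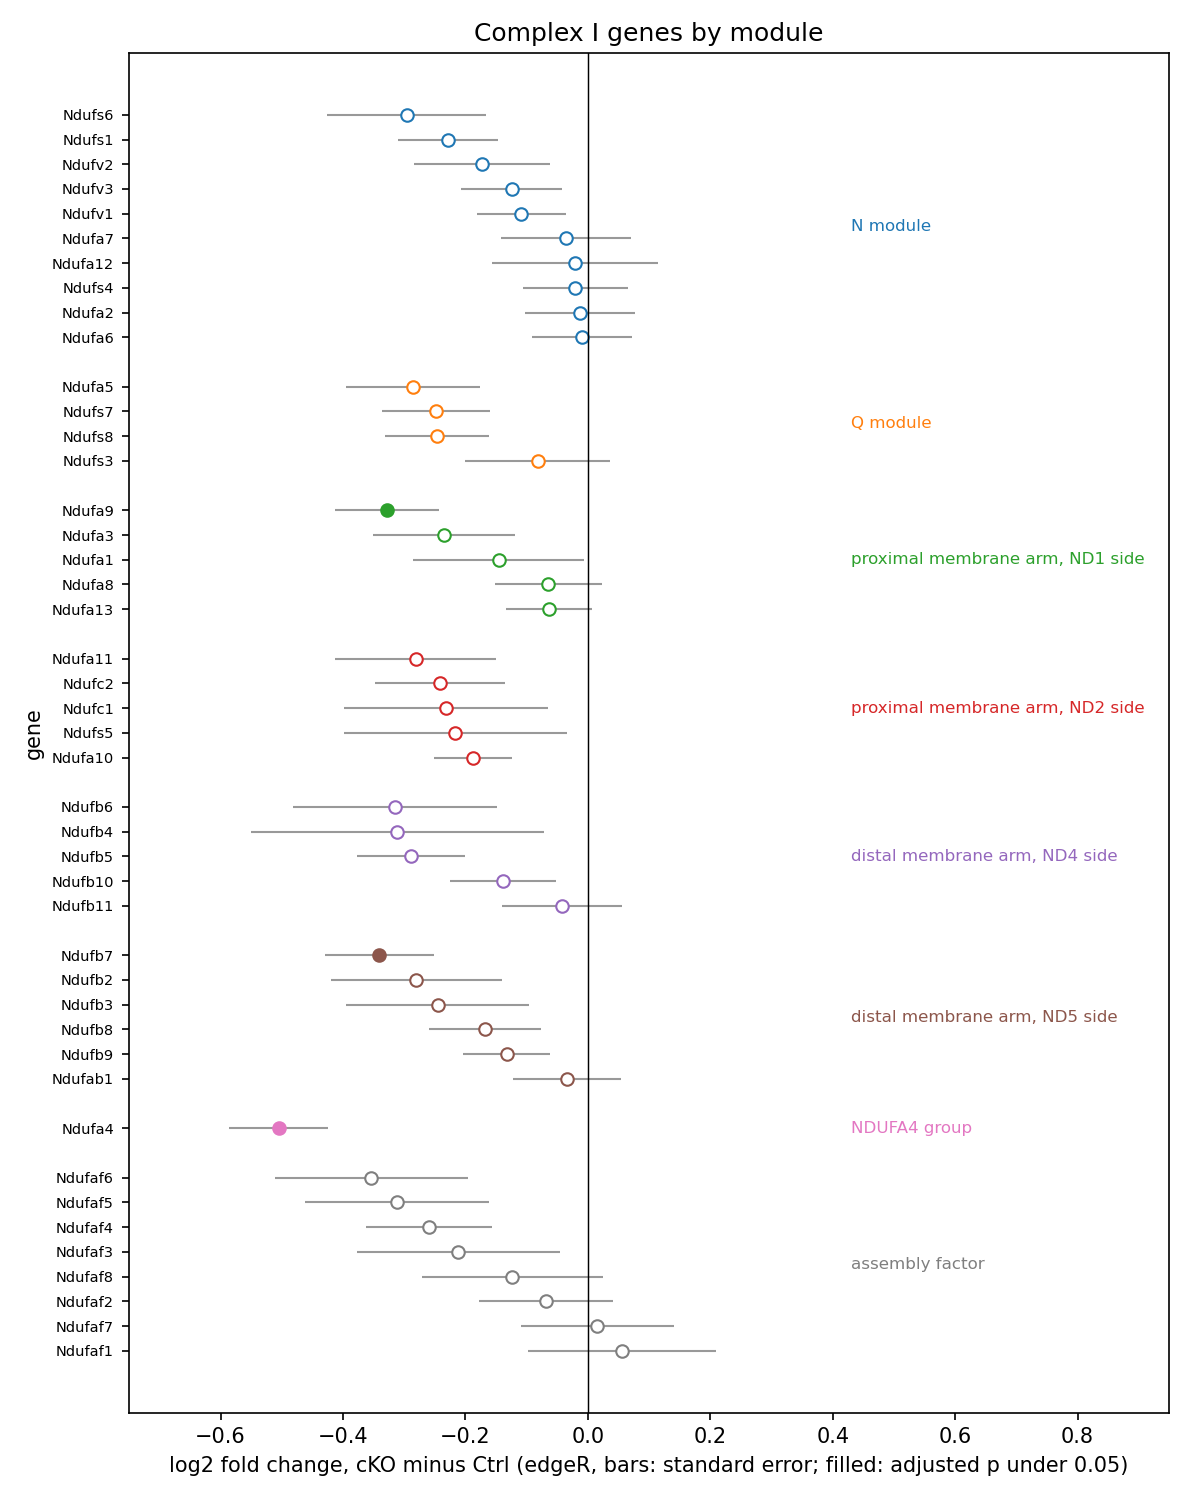
Log2 fold change (cKO minus Ctrl, x axis) of 44 of the 45 tested complex I genes, grouped by module, with the standard error from edgeR as bars. Filled points passed an adjusted p of 0.05, and 42 of the 44 points lie below 0, with Ndufa4, shown in a group of its own, lowest at -0.51.

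Summed over the 38 structural genes, the level was 1969, 2220 and 2153 CPM in Ctrl mice 1 to 3 and 1934, 1855 and 1827 CPM in cKO mice 1 to 3. The groups did not overlap, but Ctrl mouse 1 lay nearer to cKO mouse 1 than to the other Ctrl mice. The 8 assembly factors summed to 153, 152 and 150 CPM in Ctrl and to 143, 135 and 127 CPM in cKO, so that here Ctrl mouse 1 lay with its group. Among the 45 genes, the highest of the 6 libraries was Ctrl mouse 2 for 21 genes and Ctrl mouse 3 for 17, and the lowest was cKO mouse 3 for 16 and cKO mouse 2 for 14. Ctrl mouse 1 was the lowest library for 8 genes, all of them structural subunits, and the highest for 4.

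Ctrl mouse 1 is the only Ctrl mouse among the lower library numbers. Among the lower numbers (1 Ctrl against 2 cKO libraries) the median log2 difference was -0.05 over the structural subunits, with 26 of 37 below 0, and -0.15 over the assembly factors, with 7 of 8 below 0. Among the higher numbers (2 Ctrl against 1 cKO library) it was -0.26 over the structural subunits, with 35 of 37 below 0, and -0.16 over the assembly factors, with 6 of 8 below 0. Neither group holds enough libraries for a test of its own. Tested as an interaction of genotype with the group of library numbers in edgeR, a test chosen after the data had been seen, none of the 45 genes passed the threshold and 5 had an unadjusted p under 0.05 (11.1%), beside 1 of 15184 genes past the threshold and 6.20% with an unadjusted p under 0.05.

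The subunits and the assembly factors could not be separated from each other. The structural median minus the assembly median was -0.02, against a standard deviation between libraries of the same group of 0.09. It was 0.09 among the lower library numbers and -0.10 among the higher ones, so that its sign depended on the group.

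**Figure D2:**
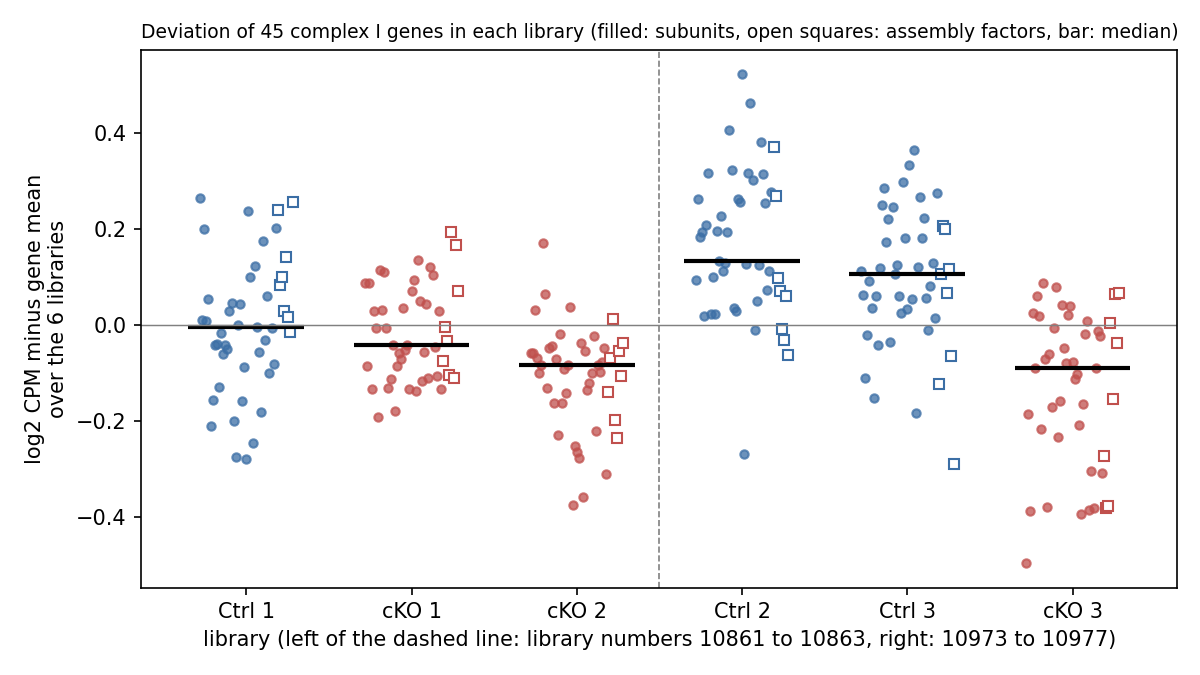
Deviation of each of the 45 tested complex I genes from its own mean over the 6 libraries (log2 CPM, y axis), by library, with structural subunits as filled circles, assembly factors as open squares, and the median as a bar. The medians are 0.13 and 0.11 in Ctrl mice 2 and 3, -0.0045 in Ctrl mouse 1, and between -0.04 and -0.09 in the cKO libraries.

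Ndufa4 (ENSMUSG00000029632, chr6:11900373-11907446, minus strand, GRCm38) encodes a protein first assigned to complex I and later found in complex IV. It was at 62.7, 66.0 and 66.0 CPM in Ctrl mice 1 to 3 and at 49.6, 43.8 and 43.8 CPM in cKO mice 1 to 3. The groups were well apart, and the highest cKO library lay below the lowest Ctrl library. The mean was 64.9 ± 1.91 CPM (SD, n = 3) in Ctrl and 45.7 ± 3.34 CPM in cKO, for which edgeR gave a log2 fold change of -0.51 with a standard error of 0.08 and an adjusted p of 0.00147. The difference was -0.43 among the lower and -0.59 among the higher library numbers. Ndufa4 passed the threshold in each of the 15 alternative settings tested. Its paralog Ndufa4l2, which replaces it under low oxygen in other cells, had 0 counts in all 6 libraries; a count of 0 allows a level of up to 0.141 to 0.231 CPM, depending on the library and for counting error only. Without Ndufa4, the median over the structural subunits was -0.19.

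The N module carries the NADH site, and 10 genes of it were tested. None passed the threshold in edgeR or in DESeq2, 2 were lower at an unadjusted p under 0.05, and the median log2 fold change of -0.07 lay nearest to 0 among the structural modules. Ndufv1 and Ndufv2, which bind FMN and an iron-sulfur cluster, had log2 fold changes of -0.11 ± 0.07 and -0.17 ± 0.11. Ndufs1, the largest iron-sulfur subunit, was at 74.0, 88.2 and 76.7 CPM in Ctrl and at 69.2, 70.5 and 64.5 CPM in cKO. Its groups did not overlap, but the difference missed the threshold (-0.23 ± 0.08, adjusted p = 0.106 with edgeR); with the length trend removed it passed (adjusted p = 0.0337, where the 15 alternatives gave 0.0337 to 0.36). Ndufs6, a zinc-binding subunit needed for a late step of assembly, had the lowest log2 fold change of the module. It was at 37.6, 33.4 and 33.9 CPM in Ctrl and 33.2, 30.0 and 22.0 CPM in cKO. The cKO libraries lay below the Ctrl libraries by little except in mouse 3, and the log2 fold change of -0.30 ± 0.13 had an adjusted p of 0.187 in edgeR. With the group of library numbers as a covariate the adjusted p was 0.0313, the lowest of its alternatives, which reached 0.499. At the other end of the module stood Ndufa6, a LYR-motif subunit that binds acyl carrier protein, with -0.01 ± 0.08.

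In the Q module, which reduces ubiquinone, none of the 5 genes passed the threshold in edgeR or DESeq2, and 4 were lower at an unadjusted p under 0.05, which held for 11.5% of all tested genes and is to be read beside each such count of the modules. The median was -0.25. Ndufs7, which holds the last iron-sulfur cluster before ubiquinone, was at 66.8, 76.5 and 85.0 CPM in Ctrl and at 63.5, 62.2 and 66.8 CPM in cKO. Ndufs8, which holds the pair of clusters before it, was at 58.6, 70.7 and 68.0 CPM in Ctrl and at 55.8, 57.4 and 53.5 CPM in cKO. In both genes the groups came close without overlap at Ctrl mouse 1, and both were called without that mouse (adjusted p = 0.0285 and 0.0326), against 0.102 and 0.0945 with all 6 libraries in edgeR. Over their alternatives the adjusted p ran from 0.0285 to 0.341 for Ndufs7 and from 0.0326 to 0.279 for Ndufs8. Ndufs3 had the highest log2 fold change of the module (-0.08 ± 0.12). Ndufa5 had the lowest log2 fold change of the module (-0.29 ± 0.11). Its difference was -0.61 among the higher and -0.01 among the lower library numbers, and the interaction missed the threshold after adjustment. Because each group of library numbers has only 1 library of a genotype, the difference of Ndufa5 cannot be placed in either group. Of the 7 nuclear core subunits in the N and Q modules together, none was called, 4 were lower at an unadjusted p under 0.05, and the median was -0.19.

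On the ND1 side of the proximal membrane arm, 1 of 5 genes passed, beside 3.79% of all tested genes called lower in edgeR. Ndufa9 (ENSMUSG00000000399, chr6:126821954-126849136, minus strand), which holds NADPH and steadies the joint of the matrix and membrane arms, was at 52.4, 58.1 and 60.3 CPM in Ctrl and at 47.8, 45.3 and 43.1 CPM in cKO. Each cKO library was below each Ctrl library, with Ctrl mouse 1 closest to the cKO group. The log2 fold change was -0.33 ± 0.09 (adjusted p = 0.0295 with edgeR). The call was lost without Ctrl mouse 2 (adjusted p = 0.0786), Ctrl mouse 3 (0.116), cKO mouse 2 (0.108) or cKO mouse 3 (0.0926) and with the group of library numbers as a covariate (0.052), and over all 15 alternatives the adjusted p ran from 0.0111 to 0.116 and the log2 fold change from -0.38 to -0.29. Within the groups of library numbers the difference was -0.17 and -0.46. The smallest difference on this side was that of Ndufa13, also known as the cell death regulator Grim19, at -0.06 ± 0.07.

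The ND2 side of the proximal arm had no gene past the threshold in edgeR or DESeq2 among 5 tested, 3 lower at an unadjusted p under 0.05, and a median of -0.23. Ndufa10 was at 124, 126 and 120 CPM in Ctrl and at 105, 112 and 107 CPM in cKO. These groups were apart with little spread inside each, and the difference was small (-0.19 ± 0.06, adjusted p = 0.0913 with edgeR); it was -0.19 in both groups of library numbers. Ndufa11, a membrane subunit beside ND2, had the lowest value there (-0.28 ± 0.13) with overlapping groups.

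In the distal membrane arm, 11 genes were tested. On the ND4 side no gene of 5 passed in edgeR, 1 was lower at an unadjusted p under 0.05 and passed in DESeq2, and the median was -0.29. That gene, Ndufb5, was named after its values had been seen, with a log2 fold change of -0.29 ± 0.09 and an adjusted p of 0.0586 in edgeR. It passed in 6 of 15 alternatives, with adjusted p from 0.0231 to 0.24 and log2 fold changes from -0.36 to -0.20. Ndufb6 had the lowest value (-0.32 ± 0.17) and opposite signs in the groups of library numbers, 0.14 among the lower and -0.56 among the higher ones. Ndufb11 had the highest (-0.04 ± 0.10).

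On the ND5 side 1 of 6 genes passed (16.7%, beside 3.79% of all tested genes called lower). Ndufb7 (ENSMUSG00000033938, chr8:83566671-83571626, plus strand), a subunit with paired cysteine motifs on the intermembrane side, was at 79.8, 77.1 and 82.5 CPM in Ctrl and at 65.4, 69.5 and 54.0 CPM in cKO. Ctrl libraries lay close together and above all cKO libraries, of which mouse 3 was lowest. The log2 fold change was -0.34 ± 0.09 (adjusted p = 0.0309 with edgeR), and the difference was -0.24 among the lower and -0.56 among the higher library numbers. The call was lost without Ctrl mouse 1 (adjusted p = 0.0582), Ctrl mouse 3 (0.11), cKO mouse 1 (0.0614) or cKO mouse 3 (0.1), and over the 15 alternatives the adjusted p ran from 0.00198 to 0.11 and the log2 fold change from -0.42 to -0.24. Ndufab1, the mitochondrial acyl carrier protein, had the value nearest to 0 in the module (-0.03 ± 0.09).

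**Figure D3:**
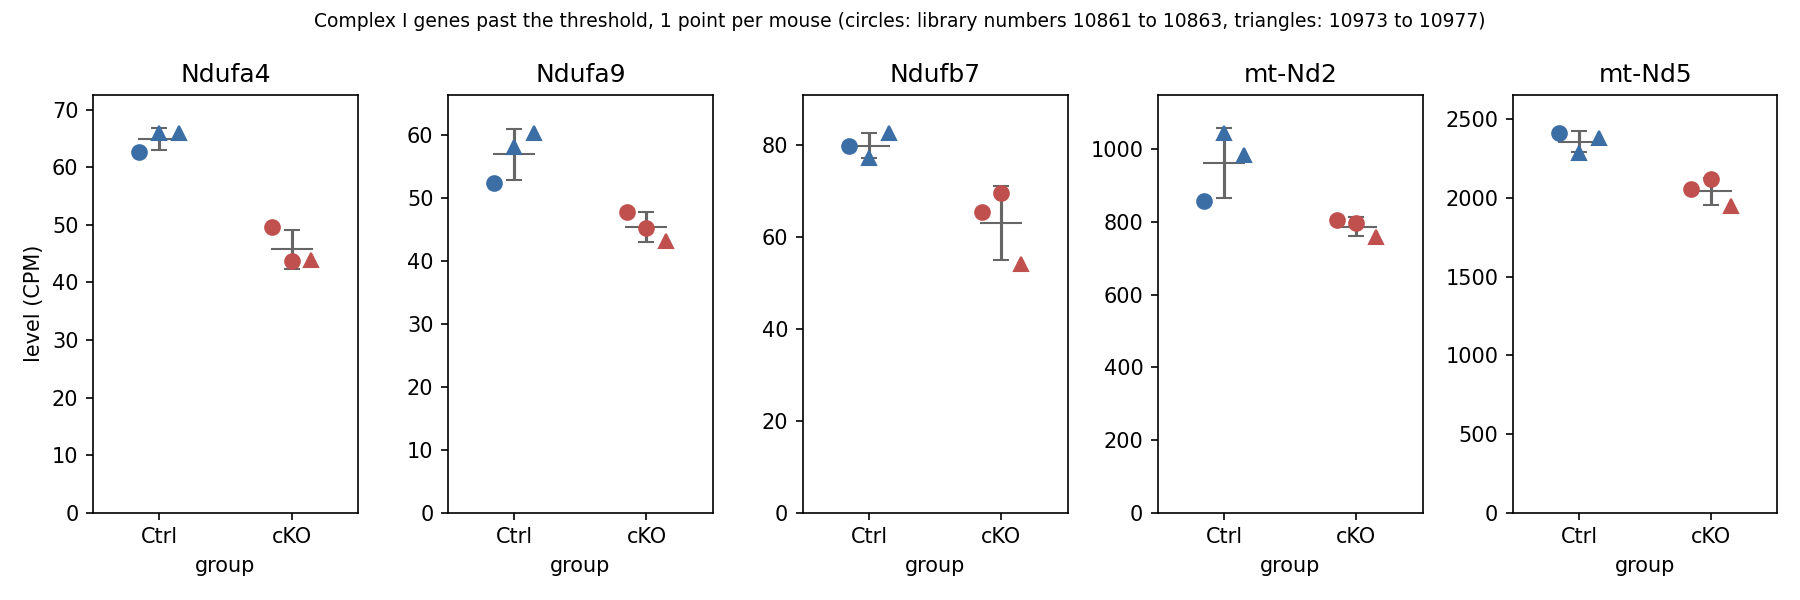
Level (CPM, y axis) of the 3 nuclear and 2 mitochondrial complex I genes that passed the threshold, with 1 point per mouse, the mean as a horizontal line and the SD as a bar, circles for the lower and triangles for the higher library numbers. In each panel the 3 cKO points lie below the 3 Ctrl points.

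None of the 8 assembly factors passed the threshold in edgeR or in DESeq2, and 2 were lower at an unadjusted p under 0.05. Ndufaf4, which helps to build the early matrix arm, was at 46.3, 46.2 and 49.8 CPM in Ctrl and at 42.1, 43.5 and 33.1 CPM in cKO. Its groups did not overlap, and the lowest library by far was cKO mouse 3 (-0.26 ± 0.10, adjusted p = 0.146 with edgeR). Ndufaf6 had the lowest log2 fold change (-0.35 ± 0.16, adjusted p = 0.194 with edgeR), and its level of 11.3 CPM in Ctrl mouse 3 fell inside the cKO range of 10.1 to 11.7 CPM. Ndufaf5, which hydroxylates an arginine of Ndufs7, and Ndufaf3, a partner of Ndufaf4, had -0.31 ± 0.15 and -0.21 ± 0.17, without overlap of the groups. Ndufaf8, a partner of Ndufaf5, and Ndufaf2, a paralog of Ndufa12, had -0.12 ± 0.15 and -0.07 ± 0.11. Above 0 stood Ndufaf7, a methyltransferase, at 0.02 ± 0.12, and Ndufaf1, a chaperone of the membrane arm, at 0.06 ± 0.15. These 2 values were smaller than their standard errors.

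Compared per length of exon (FPKM, with the deposited union of exons as the length), the levels of the complex I genes differed far more than the groups did. Averaged over the 6 libraries, the highest were Ndufa6 at 140 FPKM, Ndufb9 at 123 FPKM and Ndufa4 at 112 FPKM, and the lowest detected were Ndufb4 at 4.56 FPKM and Ndufb2 at 4.23 FPKM. Ndufa6 and Ndufb9 did not differ beyond their spread in the Ctrl libraries (141 ± 12.2 and 129 ± 6.07 FPKM, SD, n = 3). In cKO these genes were at 140 ± 9.88 and 117 ± 3.95 FPKM, apart by more than either SD. In the libraries labelled cKO, Ndufa4 at 93.0 ± 6.78 FPKM was below Ndufb9 at 117 ± 3.95 FPKM, where in Ctrl it was at 132 ± 3.87 FPKM. Long exon unions in the annotation lower these values, as for Ndufb2 with 5628 bases of exon. Ndufb4 is uncertain for a further reason, because 35.2% of the 75-base stretches of its coding transcript also occur in other genes. The same held for 27.1% of Ndufs3, 24.1% of Ndufs5, 22.0% of Ndufa12 and 10.9% of Ndufab1. Ndufa4, Ndufa9 and Ndufb7 shared none.

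The genes were spread over 17 chromosomes, with at most 6 on the same chromosome, and Ndufa4 and Ndufa9 lie far apart on chromosome 6. They were short, with a median of 1495 bases of exon against 3330 over all tested genes. Across all tested genes, the log2 fold change rose weakly with exon length (Spearman's rho = 0.174 over 15184 genes, which are not independent replicates). Within the 45 complex I genes rho was -0.0557. The slope of log2 CPM per doubling of length was 0.0170, -0.0555 and -0.0248 in Ctrl mice 1 to 3 and 0.0289, 0.0159 and 0.0185 in the cKO mice, so that the Ctrl mice highest in complex I transcripts were those with the lowest slopes. With the length trend removed from each library, the medians were -0.17 over the structural subunits and -0.14 over the assembly factors, against -0.02 over all tested genes. In that setting 5 complex I genes were called, all lower, among 1365 called in either direction over all 15184 tested genes. Without this step, 1164 of all tested genes were called. The transcripts Gm42418 and Gm26917, which overlap ribosomal RNA, took 5.30, 7.70 and 9.04% of the counts in Ctrl and 4.96, 4.45 and 7.52% in cKO, and were higher in the higher library numbers of each group. Their part in the lower levels was not tested.

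Of the 7 core subunits encoded in the mitochondrial genome, 6 were tested and 2 passed the threshold in edgeR, mt-Nd2 and mt-Nd5, both lower (33.3%, beside 3.79% of all tested genes), while 3 were lower in DESeq2 and 4 at an unadjusted p under 0.05 (66.7%, beside 11.5%). All 6 had log2 fold changes below 0, with a median of -0.20. mt-Nd2 was at 858, 1045 and 983 CPM in Ctrl and at 806, 797 and 758 CPM in cKO. Its groups did not overlap, and Ctrl mouse 1 lay nearest to the cKO libraries (-0.29 ± 0.07, adjusted p = 0.0234 with edgeR). mt-Nd5 was at 2414, 2284 and 2381 CPM in Ctrl and at 2055, 2122 and 1951 CPM in cKO, again without overlap (-0.21 ± 0.06, adjusted p = 0.0479 with edgeR). Among the lower and the higher library numbers, mt-Nd2 had -0.10 and -0.42 and mt-Nd5 had -0.21 and -0.26. Leaving out any of 5 mice ended either call, although the log2 fold change stayed between -0.37 and -0.23 for mt-Nd2 and between -0.24 and -0.18 for mt-Nd5. For mt-Nd2 the adjusted p was 0.00384 without Ctrl mouse 1 and 0.0576 to 0.0892 without any other mouse, in a range of 0.000393 to 0.0892 over its alternatives; for mt-Nd5 it was 0.0438 without Ctrl mouse 2 and 0.0852 to 0.124 without any other mouse, in a range of 0.00197 to 0.124, with the call also lost under a filter of 10 counts in every library (0.0583). In edgeR, mt-Nd1 (-0.19 ± 0.06), mt-Nd3 (-0.51 ± 0.21), mt-Nd4 (-0.10 ± 0.06) and mt-Nd6 (-0.07 ± 0.07) missed the threshold. mt-Nd1 (adjusted p = 0.0669) passed in 5 of its 14 alternatives, DESeq2 (0.00612) among them, which ran from 0.00612 to 0.183. mt-Nd4l, at under 1 CPM in each library, was not tested. All transcripts of the mitochondrial genome together took 9.90, 9.43 and 9.42% of the counts in Ctrl and 10.2, 10.4 and 9.19% in cKO, with overlapping groups.

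Beyond the Ndufaf genes, 14 of 15 listed genes for complex I assembly were tested, and 2 (14.3%, beside 3.79% of all tested genes) were lower past the threshold in edgeR, with none higher there, at an unadjusted p under 0.05 or in DESeq2. The median was -0.10. Ecsit, a part of the complex that assembles the ND2 side, was at 27.4, 25.7 and 30.8 CPM in Ctrl and at 20.1, 18.7 and 22.0 CPM in cKO. The groups did not overlap, the difference held in both groups of library numbers (-0.49 and -0.35), and the log2 fold change was -0.46 ± 0.11 (adjusted p = 0.0218 with edgeR). It lost the call without Ctrl mouse 3 (adjusted p = 0.106), cKO mouse 1 (0.066) or cKO mouse 2 (0.113), in a range of 0.00506 to 0.113 over its alternatives, where the log2 fold change ran from -0.53 to -0.39. Chchd4, the import receptor that oxidizes cysteines in the intermembrane space, was at 31.2, 33.0 and 30.8 CPM in Ctrl and at 24.9, 26.4 and 23.7 CPM in cKO, with the groups apart (-0.34 ± 0.10, adjusted p = 0.0466 with edgeR). Its call was lost with the group of library numbers as a covariate (adjusted p = 0.0576), with the length trend removed (0.0601) and when any 1 of the 6 mice was left out (0.0716 to 0.142, the alternatives in all running from 0.0303 to 0.142). The log2 fold change stayed between -0.38 and -0.31 over these alternatives. Tmem70, the gene with the next smallest adjusted p, had -0.23 ± 0.09 (adjusted p = 0.139 with edgeR). Coa1 was not analysed here.

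Other families of respiratory genes had medians below 0 as well. Among nuclear genes of complexes III and IV and of ATP synthase, 6 of 40 tested (15%, beside 3.79% of all tested genes) were called lower and none higher in edgeR, with a median of -0.21 and 35 below 0. In DESeq2 11 were lower, and 22 (55.0%, beside 11.5%) were lower at an unadjusted p under 0.05. None was higher at an unadjusted p under 0.05 or in DESeq2. The smallest adjusted p belonged to Cox6a1 (-0.43 ± 0.09), Uqcrc1 (-0.29 ± 0.07) and Atp5b (-0.27 ± 0.06). Cox6a1 kept its call in every alternative run. Uqcrc1 lost it without Ctrl mouse 2 (adjusted p = 0.055), Ctrl mouse 3 (0.0637), cKO mouse 1 (0.0646) or cKO mouse 2 (0.0842), in a range of 0.00107 to 0.0842, and Atp5b without Ctrl mouse 3 (0.071), cKO mouse 2 (0.0738) or cKO mouse 3 (0.052), in a range of 0.000174 to 0.0738. In complex II all 4 genes had log2 fold changes below 0 and 1 was called (25.0%, beside 3.79%), Sdhd (-0.43 ± 0.09, adjusted p = 0.00873 with edgeR), while Sdhc, Sdhb and Sdha had -0.18 ± 0.08, -0.16 ± 0.08 and -0.08 ± 0.06. Among mitochondrial ribosomal proteins, 4 of 77 tested (5.19%) were called lower in edgeR, near the 3.79% of all tested genes, with a median of -0.14; 25 were lower at an unadjusted p under 0.05 (32.5%, beside 11.5%). The called genes included Mrpl12 (-0.31 ± 0.07), Mrps26 (-0.30 ± 0.09) and Mrpl37 (-0.33 ± 0.09). Mrpl12 lost its call without Ctrl mouse 3 (adjusted p = 0.0648), cKO mouse 2 (0.06) or cKO mouse 3 (0.0518), in a range of 0.004 to 0.0648. Mrps26 lost it with the group of library numbers as a covariate (0.0785) and without any mouse other than Ctrl mouse 1 (0.0576 to 0.156), in a range of 0.0191 to 0.156, and Mrpl37 lost it without any 1 of the 6 mice (0.0583 to 0.151), in a range of 0.0156 to 0.151. In these families too, the median was nearer to 0 among the lower library numbers (-0.06 for complexes III, IV and ATP synthase and -0.07 for the ribosomal proteins) than among the higher ones (-0.31 and -0.24). A difference of complex I from these families was not tested.

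None of 9 regulators of nuclear respiratory genes passed the threshold in edgeR or in DESeq2. At an unadjusted p under 0.05, where 1717 of all 15184 tested genes were higher, none was lower and 1 was higher. That gene was Ppargc1a, a coactivator of respiratory genes, at 0.383, 0.858 and 0.768 CPM in Ctrl and at 1.47, 2.29 and 1.12 CPM in cKO. Its level was low in all libraries, and it missed the threshold (1.24 ± 0.46, adjusted p = 0.123 with edgeR). Each cKO library lay above each Ctrl library, a pattern found in 14% of all tested genes. Pprc1, a relative of Ppargc1a, had -0.14 ± 0.06, and Esrra, a nuclear receptor that acts with it, had -0.33 ± 0.17.

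Genes listed as markers of other blood cells differed between the groups as well. The paper states that many of its affected lineage genes are also expressed, at low levels, in blood stem and progenitor cells. Each count of markers called is to be read beside the 3.79% of all tested genes called lower in edgeR. Of 15 granulocyte and monocyte markers, with Azu1 not analysed here, 10 were tested and 9 called lower in edgeR (8 in DESeq2); the list summed to 3582, 2981 and 3462 CPM in Ctrl and to 865, 673 and 541 CPM in cKO. Mpo was its most abundant gene (-2.89 ± 0.15), followed in adjusted p by Elane (-2.37 ± 0.15) and Ctsg (-1.27 ± 0.12). Among genes of later cells, S100a8 (-1.96 ± 0.53) and S100a9 (-2.16 ± 0.56) were called lower at 39 counts or fewer in each library, Ltf and Ngp had at most 16 and 6 counts and were not tested, and Camp and Fcnb had at most 1 count in any library. Of 14 erythroid markers 9 were tested and 6 called lower by either tool, summing to 535, 496 and 556 CPM in Ctrl and to 296, 350 and 334 CPM in cKO. Car2 was its most abundant gene, the smallest adjusted p belonged to Car1 (-5.72 ± 0.22), Ermap (-3.01 ± 0.25) and Klf1 (-2.07 ± 0.21). Of the hemoglobin genes, Hbb-bt (0.59 ± 0.34) and Hbb-bs (-0.37 ± 0.69) missed the threshold at 71 counts or fewer, Hba-a1 had 1 to 11 counts and was highest in cKO mouse 1, and the membrane gene Slc4a1 had at most 1 count in any library. Of 13 B and antibody-secreting cell markers 7 were tested and 3 called lower in edgeR (2 in DESeq2), namely Ighm (-1.72 ± 0.22), Jchain (-2.80 ± 0.53) and Igkc (-2.92 ± 0.58), in a sum of 510, 683 and 328 CPM in Ctrl and of 192, 251 and 174 CPM in cKO. Ighm had the highest mean level in the list. Igkc missed the threshold in DESeq2 (adjusted p = 0.168, the highest of its alternatives, the lowest being 8.02e-171), and was at 97.6, 146 and 37.0 CPM in Ctrl and at 10.8, 25.4 and 0.421 CPM in cKO, a difference of -2.55 among the lower and -7.07 among the higher library numbers. It varied widely within each group. The other 4 tested genes of the list missed the threshold, with Cd79b at 0.16 ± 0.13, Sdc1 at 0.20 ± 0.25, Xbp1 at -0.04 ± 0.08 and Ebf1 at -0.07 ± 0.49, and the median of the list was -0.07. Of 12 T and NK cell markers 4 were tested and 2 called lower by either tool, Trbc1 (-4.48 ± 0.67) and Nkg7 (-0.85 ± 0.13), the latter the most abundant. The other 2, Cd4 (0.81 ± 0.31) and Klrb1c (0.68 ± 0.50), had log2 fold changes above 0 and missed the threshold. For Cd4 the groups did not overlap, with the cKO libraries higher (adjusted p = 0.134 with edgeR). The median of these 4 genes was -0.09. That list summed to 55.2, 54.5 and 65.1 CPM in Ctrl and to 37.5, 32.2 and 29.3 CPM in cKO, and Cd8b1 had 0 counts in all libraries. Most of this sum was Nkg7, at 41.25, 46.43 and 57.65 CPM in Ctrl and at 31.02, 25.79 and 23.57 CPM in cKO. In all 4 lists the summed level of each cKO library was below that of each Ctrl library. Their part in the lower complex I levels was not tested.

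As a description only, the promoters of the complex I genes were searched for 3 motifs of factors known to act on respiratory genes. A link of these motifs to the lower levels in the libraries labelled cKO was not tested. Windows of 300 bases, with 250 before the start of the gene, were taken from RefSeq (GRCm38.p6) and matched 40 of the 46 genes with 42 windows. On either strand, GCATGCGC (NRF1) occurred in 5 of the 42 windows (11.9%), beside 2.71% of all 32851 windows. CCGGAAG (ETS factors, including GABPA) occurred in 6 (14.3%), beside 8.86%, and AAGATGGC (YY1) in 8 (19.0%), beside 2.75%. In Ndufaf8, which held both of the last motifs, they did not overlap, and 24 of the 42 windows held none of the 3. The windows of the 3 genes past the threshold are shown on the strand of the gene, with motifs in capitals, to set side by side the genes with the clearest differences. Ndufb7 (chr8:83566508-83566807, plus strand) held the ETS motif, Ndufa9 (chr6:126849095-126849394, minus strand) held the YY1 motif, and Ndufa4 (chr6:11907401-11907700, minus strand) held none of them.
Ndufb7: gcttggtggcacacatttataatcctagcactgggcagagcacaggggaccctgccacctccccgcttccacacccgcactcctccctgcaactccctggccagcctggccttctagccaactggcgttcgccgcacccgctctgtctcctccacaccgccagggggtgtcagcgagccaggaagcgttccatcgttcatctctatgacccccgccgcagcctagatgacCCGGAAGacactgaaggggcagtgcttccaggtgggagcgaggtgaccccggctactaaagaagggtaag
Ndufa9: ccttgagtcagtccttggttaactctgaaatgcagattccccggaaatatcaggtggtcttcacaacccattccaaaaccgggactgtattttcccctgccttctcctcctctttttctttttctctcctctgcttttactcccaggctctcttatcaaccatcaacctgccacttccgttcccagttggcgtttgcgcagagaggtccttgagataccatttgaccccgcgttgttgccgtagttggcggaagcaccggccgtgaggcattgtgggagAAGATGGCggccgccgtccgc
Ndufa4: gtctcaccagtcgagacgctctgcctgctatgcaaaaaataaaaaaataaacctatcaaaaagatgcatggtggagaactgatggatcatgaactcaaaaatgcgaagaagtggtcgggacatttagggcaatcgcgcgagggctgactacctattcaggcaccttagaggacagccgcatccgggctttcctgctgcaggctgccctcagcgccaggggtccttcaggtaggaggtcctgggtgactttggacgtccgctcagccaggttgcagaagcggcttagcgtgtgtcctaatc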

How the data were processed

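Per the submitters' processing notes, the authors used bcl2fastq 2.17.1.14, aligned reads with GSNAP to mm10 and counted them per gene on the sense strand with featureCounts 1.5.0 on Ensembl 81 models. The deposited values are raw counts of reads per gene, without normalization; totals were 13003573 to 21277519 per library, and precision is that of these counts and of 3 mice per group. Symbols were taken from GENCODE M21 by gene ID (98.8% of 45706 genes matched); coordinates are those of M21.

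From the counts, edgeR 4.0.16 (R 4.3.3) was run with TMM, filterByExpr (15184 genes) and the quasi-likelihood test, with genotype as the only term and Benjamini-Hochberg adjustment over all tested genes. CPM and FPKM used TMM library sizes. A floor of 3 counts was used for genes at 0. Genes named were those past the threshold, the nuclear core subunits, the assembly factors, the lowest and highest member of each module, the 3 highest and lowest levels, in other lists the 3 smallest adjusted p and every mt-Nd gene, and Setd1b. Some genes that this rule names are not reported here. Members and lists were chosen with earlier results of these data known. Alternatives were DESeq2 1.42.0 (size factors or Wald test), other count filters, the group of library numbers as covariate or split, length or GC trends removed (loess, span 0.3), 394 features left out (those of the mitochondrial genome, of ribosomal RNA, or holding over 1% of counts), protein-coding genes only, a threshold of 0.01, and each mouse left out. The procedure was tested on simulated data, where it recovered 51.4% of genes changed by an absolute log2 fold change of 0.5, the smallest simulated. An interaction test was added after the data had been seen. Libraries of a group differed by more than sampling noise. The p-values of the main fit set the difference between the genotypes against the spread between mice of a group. That spread includes counting error and any difference between the groups of library numbers.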

Additional observations from a re-analysis of the deposited data

How the results depend on the processing

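Ndufa4 kept its direction and its call in all 15 tested alternatives. The count of Nduf genes past the threshold, 3 at first, was 5 with the length trend removed, 5 with the GC trend removed and 1 at an adjusted p under 0.01; when a mouse was left out it ranged from 1 to 6. The Nduf genes called in these settings all had negative log2 fold changes. Calls over all tested genes, higher and lower together, numbered 1164 at first. They were 1365 with the length trend removed, 1270 with the GC trend removed, and 604 to 1125 when a mouse was left out. The cause was not tested.

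The median log2 fold change of the structural subunits ranged from -0.20 to -0.14 over 9 settings with all mice and from -0.25 to -0.13 when a mouse was left out, and was -0.051 among the lower library numbers. That of the assembly factors ranged from -0.18 to -0.14 and, with a mouse left out, from -0.24 to -0.11. The structural median minus the assembly median ranged from -0.03 to 0.02 and from -0.09 to 0.07, and was 0.095 among the lower library numbers.

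Among the genes named, signs turned as follows, none of them for a called gene. With the group of library numbers as a covariate, the log2 fold change was 0.0084 for Ndufa6, 0.021 for Ndufb11 and -0.0017 for Ndufaf1. With the length trend removed it was 0.073 for Ndufa6, 0.025 for Ndufb11, 0.013 for Ndufaf2, -0.0069 for Ndufaf7 and 0.0085 for mt-Nd6. With a mouse left out it ranged from -0.072 to 0.045 for Ndufa6, -0.081 to 0.017 for Ndufab1, -0.13 to 0.038 for Ndufb11, -0.069 to 0.21 for Ndufaf1 and -0.071 to 0.074 for Ndufaf7. Within the groups of library numbers, which have no test, signs turned for further genes, among them Ndufb6 (0.14) and Cd48 (0.084) among the lower numbers. Of the 37 tested structural subunits, 32 stayed below 0 with the covariate and 32 with the length trend removed. The cause was not tested. Of 510 values computed for 30 named Nduf genes, 452 counted as unchanged. These kept direction and side of the threshold or, for values without a test, moved by less than the spread between libraries, whatever their sign. Of the others, 9 lost a call, 5 gained one and 16 changed sign in a setting with a test. A further 28 values without a test moved by more than the spread between libraries. No paired analysis was possible because the labels do not say which mice share a litter, although the mice are described as littermates.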

Other observations

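A set of 4 processed pseudogenes with Nduf symbols was left out of the comparisons, since they are not protein-coding. Over the Ctrl and then the cKO libraries, Ndufab1-ps had 56, 141, 99, 71, 89 and 59 counts and Ndufs6b had 71, 89, 69, 87, 68 and 50 counts. Ndufb4c had 22 to 42 counts and Ndufa11b 0 to 7 counts per library.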
